A study of Mus musculus with 9 samples.

Results

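Endothelial and sinusoid genes were examined in bulk RNA-seq of macrophages sorted from mouse fetal liver (FL). They are 36 genes listed by symbol for their known expression in vessel walls, together with a few regulators, and the rule that lists them uses no measured value, although earlier results of these data were known when it was written. Symbols were matched through their Ensembl identifiers, and 34 of the 36 had a row among the 13708 genes of the table. Aplnr, the apelin receptor, and Tal2, a transcription factor, had no row. The samples were CD45+ F4/80hi CD11blow macrophages from E15.5 livers, 5 of Mrc1Cre Xpr1fl/fl and 4 of Xpr1fl/fl (controls), all on a C57BL/6JRj background. All animals carried loxP sites around exon 2 of Xpr1, which encodes a phosphate exporter, and the Mrc1Cre Xpr1fl/fl animals also carried 1 allele of Mrc1 into which a Cre and a yellow fluorescent protein had been inserted. Mrc1 encodes the mannose receptor CD206, which sinusoidal endothelial cells make as well as macrophages, so that Cre can act in both cell types and the genotype is not a deletion in macrophages alone. Nothing in the sources used here says whether each sample came from a separate embryo, so the p-values measure the spread between these samples, which may be technical.

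Endothelial cells line all vessels. In the liver the sinusoids are wide capillaries whose endothelium is fenestrated, lacks a full basement membrane and takes up material from the blood through scavenger receptors. Its cells depend on VEGF receptors, on the angiopoietin receptor Tie2 and the related Tie1, and on transcription factors of the ETS and SOXF families. Kupffer cells and their fetal precursors lie in or against this wall, and macrophages that surround erythroblasts are close to it too. Many genes used as endothelial markers are shared with hematopoietic stem cells, platelets or macrophages. From such textbook knowledge, 20 of the 34 genes measured were listed as mainly endothelial, 13 as also made by blood cells, and 1, Maf1, a repressor of RNA polymerase III, as made by all cells.

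Promoter sequences are shown first, because ETS and SOX factors are themselves among the genes. Promoter sequences of RefSeq on build GRCm38.p6 were held for 18 of the 36 genes. The 250 bases before the transcript start were searched on both strands for an ETS motif (CCGGAAG or CAGGAAG) and for a SOX motif (AACAAT), which do not overlap each other. An ETS motif was found for 7 of the 18 genes, beside 18.96% of the 27025 gene symbols in the promoter table, and a SOX motif for 4 of the 18, beside 10.9%. Below are the windows of Robo4 and Egfl7, which are endothelial genes that fell, and of Kdr and Calcrl, which did not fall. Each is read 5′ to 3′ toward the transcript start, and for Egfl7 1 of its 3 windows is given. The windows of Egfl7 hold 2, 1 and 0 ETS matches, and the one given holds 1. The windows of Tie1, Clec14a and Flt4, which also fell, hold no match of either motif. Capitals mark the matches, and Kdr had none in its window.
Robo4, chr9:37401722-37401971, plus strand: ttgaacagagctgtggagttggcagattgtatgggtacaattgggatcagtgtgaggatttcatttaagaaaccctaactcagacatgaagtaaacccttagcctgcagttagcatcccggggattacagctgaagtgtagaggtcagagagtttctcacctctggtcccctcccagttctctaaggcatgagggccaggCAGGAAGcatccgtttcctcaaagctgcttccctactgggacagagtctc
Egfl7, chr2:26583615-26583864, plus strand: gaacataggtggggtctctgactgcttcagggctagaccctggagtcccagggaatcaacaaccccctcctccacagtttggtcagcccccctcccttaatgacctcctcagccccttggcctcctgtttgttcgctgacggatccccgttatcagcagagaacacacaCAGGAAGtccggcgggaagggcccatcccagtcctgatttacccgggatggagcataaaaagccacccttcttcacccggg
Kdr, chr5:75978456-75978705, minus strand: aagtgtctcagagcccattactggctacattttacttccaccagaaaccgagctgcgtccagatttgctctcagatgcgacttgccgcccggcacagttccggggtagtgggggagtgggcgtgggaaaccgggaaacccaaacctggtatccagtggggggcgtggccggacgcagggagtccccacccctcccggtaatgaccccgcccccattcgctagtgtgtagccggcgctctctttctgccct
Calcrl, chr2:84425267-84425516, minus strand: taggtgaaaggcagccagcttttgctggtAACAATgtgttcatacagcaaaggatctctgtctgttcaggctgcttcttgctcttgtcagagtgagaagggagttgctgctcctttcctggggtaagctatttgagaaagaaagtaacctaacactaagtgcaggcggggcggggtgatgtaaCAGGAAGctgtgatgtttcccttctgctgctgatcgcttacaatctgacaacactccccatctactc
A match is only a run of letters, and no binding was measured.

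Across the genes with a row, 25 of 34 were lower and 1 was higher in Mrc1Cre Xpr1fl/fl macrophages (limma on log2(normalized count + 1), Benjamini-Hochberg adjusted p under 0.05 over 13594 genes tested). Of all genes tested, 21.6% were lower and 21.5% higher by the same rule, and the median log2 fold change was −1.25 over the members and 0.00 over all genes. Lower genes made up 50.1% of all calls, and 65.4% when samples were scaled to the same 75th percentile. Among the 5326 genes whose control mean lay in the range of the endothelial members, 29.7% were lower and 10.1% higher. All 34 members passed the filter on low values, which asked for a level of 10 or more normalized counts in 4 or more samples. Of them, 29 also reached that level in at least 4 of the 5 Mrc1Cre Xpr1fl/fl samples alone. The members that did not were Bmx, Sox7, Sox17, Cldn5 and Emcn, which needed control values to pass. Bmx, Sox7 and Emcn are among the genes called lower, so these calls are of genes that passed only with the help of the controls. With no filter the counts were the same, 25 members lower and 1 higher, and 16 were lower with a filter at 50. In bulk samples, fewer cells of a type and less RNA per cell cannot be told apart.

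In 13 of the 34, every Mrc1Cre Xpr1fl/fl sample was below every control, which held for 17.5% of all genes. In 1, Calcrl, every one was above, which held for 16.6% of all genes. Of the endothelial genes 16 of 20 fell and 0 rose. Of those shared with blood cells 9 of 13 fell and 1 rose. These counts stand beside 21.6% of all genes lower and 21.5% higher.

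**Figure D1:**
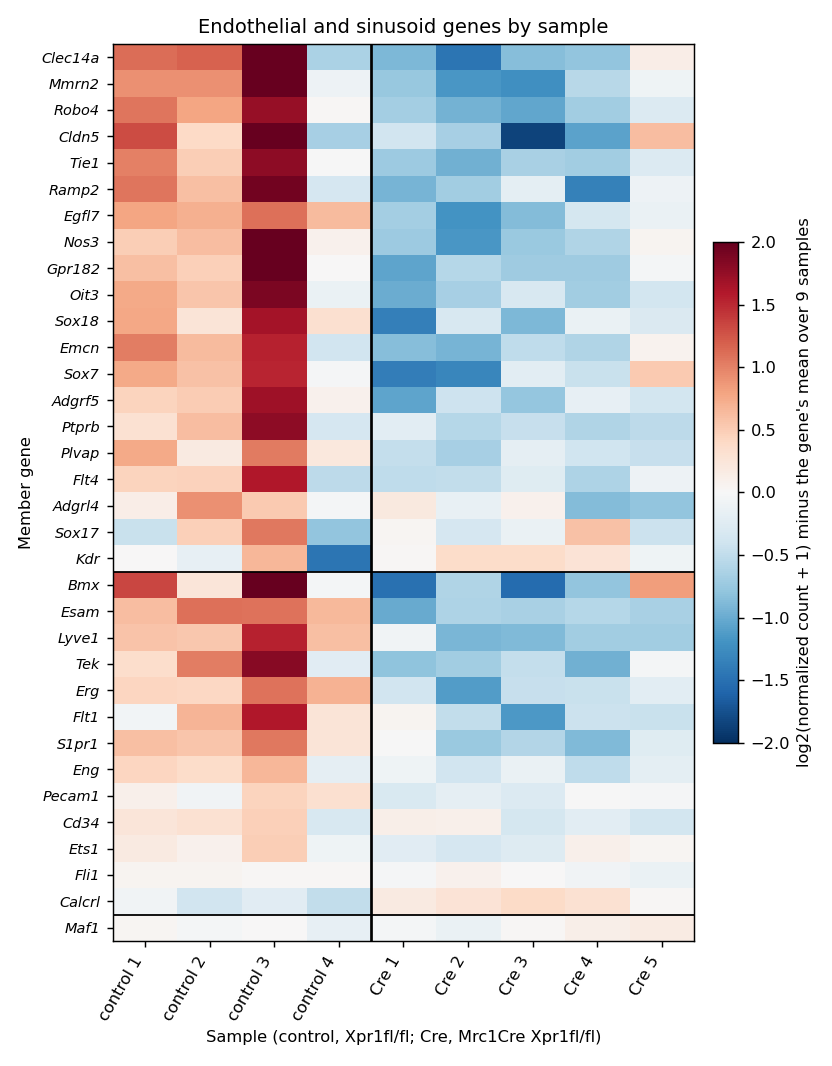
Heat map of the 34 genes with a row (rows) in the 4 Xpr1fl/fl samples (control 1 to 4) and the 5 Mrc1Cre Xpr1fl/fl samples (Cre 1 to 5). Colors give log2(normalized count + 1) minus the gene's mean over the 9 samples, with values beyond the ends of the scale drawn at its ends, and lines separate 20 endothelial genes (top), 13 genes shared with blood cells and Maf1. Control 3 is the darkest red column, control 4 is paler than the other controls, and Calcrl and Kdr do not follow the genes around them.

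The targeted gene checked the labels. Xpr1 was at 1162.1 ± 84.9 normalized counts (SD, n = 5) in Mrc1Cre Xpr1fl/fl samples and 1981.6 ± 204.7 (SD, n = 4) in controls, and the log2 fold change (± standard error) was −0.77 ± 0.08 (adjusted p = 4.13e-05). Mrc1, which carries the inserted Cre, was lower too (−1.72, adjusted p = 5.37e-06). The markers of the labelled cell were present, with Adgre1, which encodes F4/80, at 42249.8 to 52418.8 normalized counts over all samples. Not all of them were even between the genotypes. Ptprc, which encodes CD45, was higher in Mrc1Cre Xpr1fl/fl samples (means 15402.1 and 8497.0, log2 fold change 0.85, adjusted p = 4.04e-05). The samples bear dates at the start of their column names, whose meaning is not given. Mrc1Cre Xpr1fl/fl sample 5 and controls 1 to 3 share the earliest date, control 4 has a later one, and Mrc1Cre Xpr1fl/fl samples 1 to 4 have the latest. In a fit with the date as a term, only the samples of the earliest date inform the difference between genotypes, and 4.54% of all genes were then lower and 4.24% higher. Control 3 stood apart for these genes, as its values below show.

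The growth factor receptors and kinases were lower in 6 of 7 cases, beside 21.6% of all genes. Tie1, an endothelial receptor tyrosine kinase that modulates Tie2, had 53.5, 45.1, 56.1, 54.5 and 73.4 normalized counts in Mrc1Cre Xpr1fl/fl samples 1 to 5 and 180.4, 125.7, 310.9 and 88.2 in controls 1 to 4. The genotypes did not overlap, although control 4 was close to sample 5. It fell by 1.49 ± 0.31 on the log2 scale (± standard error, adjusted p = 0.00273). Tek, which encodes Tie2, the receptor of the angiopoietins, read 30.8, 33.5, 38.9, 27.7 and 53.2 against 69.7, 112.2, 196.4 and 46.4. Its control 4 lay below Mrc1Cre Xpr1fl/fl sample 5, and the log2 fold change was −1.34 (adjusted p = 0.0123).

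Flt1, a VEGF receptor that acts largely as a decoy, had 67.0, 45.8, 28.5, 48.0 and 47.0 normalized counts in Mrc1Cre Xpr1fl/fl samples and 61.9, 104.0, 197.9 and 77.4 in controls. One control was within the range of the Mrc1Cre Xpr1fl/fl samples (−1.11, adjusted p = 0.0181). Flt4, the receptor of VEGF-C in lymphatic and sinusoidal endothelium, had 86.9, 88.0, 104.4, 80.5 and 115.2 against 169.3, 171.4, 377.3 and 86.6. It fell by 0.89 on the log2 scale (adjusted p = 0.0442), a call that held in only 2 of the 9 fits that each left out a sample. Ptprb, the endothelial phosphatase that acts on Tie2, was at 25.6 to 34.1 against 31.2 to 138.3 (−1.07, adjusted p = 0.0293). Bmx, a nonreceptor kinase of arterial endothelium and myeloid cells, was at 5.1 to 30.5 against 16.1 to 72.5 (−1.61, adjusted p = 0.0365), and its log2 fold change was −0.37 with the date as a term. Ptprb passed in 4 and Bmx in 3 of the 9 fits that left out a sample, and without control 3 none of Ptprb, Bmx and Flt4 did. The log2 fold change without control 3 was −0.67 for Ptprb (adjusted p = 0.0693), −0.53 for Flt4 (adjusted p = 0.108) and −1.22 for Bmx (adjusted p = 0.12), so that the values of Ptprb and Flt4 rest in large part on that sample.

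Kdr, the main signaling VEGF receptor of endothelium, was the exception in this group. It had 489.2, 622.1, 622.8, 582.6 and 450.9 normalized counts in Mrc1Cre Xpr1fl/fl samples and 484.2, 429.7, 759.9 and 175.0 in controls. The controls held both the highest and the lowest of the 9 values, and the Mrc1Cre Xpr1fl/fl samples lay between them. The means were 553.5 ± 79.1 (SD, n = 5) and 462.2 ± 239.9 (SD, n = 4), which is 0.43 ± 0.32 on the log2 scale (± standard error, adjusted p = 0.307). Leaving out single samples gave 0.02 to 0.73, and with the date as a term the log2 fold change was −0.26 (adjusted p = 0.590). Set against the summed normalized counts of the other 19 endothelial genes, Kdr amounted to 63.0%, 82.3%, 71.2%, 69.3% and 42.1% in Mrc1Cre Xpr1fl/fl samples and to 23.5%, 23.2%, 19.6% and 13.9% in controls. This share was chosen after the values were seen and was not tested. It was higher in each Mrc1Cre Xpr1fl/fl sample than in any control, sample 5 of the shared date included. Most of the other 19 genes fell between the genotypes and Kdr did not. A higher share follows from those values by arithmetic and is not a further result about Kdr.

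Of the other receptors, 6 of 8 fell and 1 rose, beside 21.6% and 21.5% of all genes. Robo4, a guidance receptor of vessels whose promoter window is printed above, had 20.4, 16.8, 15.6, 20.2 and 27.3 normalized counts in Mrc1Cre Xpr1fl/fl samples and 70.9, 58.0, 113.0 and 33.7 in controls. The genotypes did not overlap (−1.63, standard error 0.32, adjusted p = 0.00213). Gpr182, an atypical chemokine receptor of sinusoidal endothelium, had 62.1, 87.3, 78.8, 78.8 and 126.3 against 196.6, 180.7, 522.2 and 130.3. Every control was again higher, the lowest by a small margin (−1.39, standard error 0.35, adjusted p = 0.00759). Adgrf5, an adhesion G protein-coupled receptor of endothelium, was at 33.8 to 63.5 against 75.8 to 232.8 (−1.24, adjusted p = 0.00746). S1pr1, the sphingosine 1-phosphate receptor of endothelium and lymphocytes, was at 26.2 to 48.9 against 58.6 to 102.8 (−1.11, adjusted p = 0.00327), also without overlap. Adgrl4, another endothelial adhesion receptor, was at 36.8 to 77.4 against 65.8 to 128.1 and did not pass (−0.68, adjusted p = 0.0656), although it did without control 4 (−0.82, adjusted p = 0.0456) or without Mrc1Cre Xpr1fl/fl sample 1 (−0.81, adjusted p = 0.0444).

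Eng, endoglin, a coreceptor for BMP9 and TGF-beta on endothelium and some macrophages, had 529.2, 430.2, 510.3, 391.1 and 487.3 normalized counts in Mrc1Cre Xpr1fl/fl samples and 757.3, 724.6, 888.6 and 495.3 in controls. Control 4 lay within the range of the Mrc1Cre Xpr1fl/fl samples and the other controls lay above it. Eng fell by 0.59 on the log2 scale (standard error 0.15, adjusted p = 0.00981), and by 0.69 with the date as a term (adjusted p = 0.0493).

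Calcrl and Ramp2, which together form the receptor of adrenomedullin, went in opposite directions. Calcrl, the G protein-coupled subunit, had 700.8, 751.6, 811.5, 766.2 and 628.5 normalized counts in Mrc1Cre Xpr1fl/fl samples and 588.8, 476.2, 528.5 and 440.0 in controls. Every Mrc1Cre Xpr1fl/fl sample was above every control, with means of 731.7 ± 69.9 (SD, n = 5) and 508.4 ± 64.8 (SD, n = 4). Calcrl rose by 0.53 ± 0.10 on the log2 scale (± standard error, adjusted p = 0.00171), a call kept in all 9 fits that left out a sample but not with the date as a term (0.25, adjusted p = 0.305). Ramp2, the accessory subunit that gives the receptor its affinity for adrenomedullin, had 16.4, 19.5, 28.2, 12.0 and 30.1 against 69.1, 49.7, 125.1 and 25.4. Its control 4 lay among the Mrc1Cre Xpr1fl/fl samples (−1.47, adjusted p = 0.0157). The span of Ramp2 overlaps Vps25 on the same strand, so that its value may hold reads of that gene. Without control 3, the adjusted p of Ramp2 was 0.0506.

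The transcription regulators were lower in 3 of 7 cases, beside 21.6% of all genes, and those 3 had low or moderate levels. Erg, an ETS factor that maintains endothelial identity and is also used by hematopoietic stem cells and megakaryocytes, had 148.0, 88.4, 141.4, 141.7 and 167.3 normalized counts in Mrc1Cre Xpr1fl/fl samples and 261.8, 257.9, 412.6 and 316.3 in controls. The lowest control was well above the highest Mrc1Cre Xpr1fl/fl sample. The means were 137.4 ± 29.3 (SD, n = 5) and 312.2 ± 72.1 (SD, n = 4), and Erg fell by 1.18 on the log2 scale (standard error 0.20, adjusted p = 0.000711). Its relatives Fli1 and Ets1, which blood cells use as well, behaved otherwise. Fli1 had 1541.7 to 1795.4 normalized counts against 1733.5 to 1758.3, a difference of −0.07 ± 0.05 on the log2 scale (adjusted p = 0.315), and passed only with scaling to the 75th percentile (−0.15, adjusted p = 0.0356). Ets1 had 723.2 to 974.6 against 862.5 to 1282.1, which did not pass (−0.30, adjusted p = 0.0638). It did pass with scaling to the 75th percentile (−0.39, adjusted p = 0.027). Leaving out control 4 (adjusted p = 0.0291) or Mrc1Cre Xpr1fl/fl sample 4 (adjusted p = 0.0386) or 5 (adjusted p = 0.0446) also gave a call.

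The SOXF factors, which act in vessel and arterial specification, were measured at low levels. Sox18 had 11.6, 24.8, 16.4, 28.5 and 25.4 normalized counts in Mrc1Cre Xpr1fl/fl samples and 54.3, 37.6, 101.0 and 39.3 in controls, with no overlap (−1.35, adjusted p = 0.00944). Sox7 was at 4.5 to 19.5 against 13.1 to 40.0 (−1.27, adjusted p = 0.0433), a call that held in 2 of the 9 fits that left out a sample and had an adjusted p of 0.138 without control 3. Sox17 had 8.0 to 17.1 against 6.0 to 24.1, which did not differ beyond the spread (−0.13, standard error 0.43, adjusted p = 0.832). Maf1 had 1962.5 to 2416.1 against 1920.8 to 2195.1 (0.07, adjusted p = 0.457).

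The junction, surface and secreted proteins fell in 10 of 12 cases, beside 21.6% of all genes, and included the smallest adjusted p-values. Esam, an adhesion molecule of endothelial junctions, platelets and hematopoietic stem cells, had 23.8, 31.5, 30.9, 32.6 and 30.9 normalized counts in Mrc1Cre Xpr1fl/fl samples and 75.4, 105.8, 104.9 and 77.2 in controls. All controls were well above the highest Mrc1Cre Xpr1fl/fl sample, with means of 29.9 ± 3.5 (SD, n = 5) and 90.8 ± 16.8 (SD, n = 4). Esam fell by 1.56 on the log2 scale (standard error 0.19, adjusted p = 0.000105) with a value of −1.58 in the fit with the date (adjusted p = 0.0238). Egfl7, a protein that endothelium secretes into the vessel wall, had 92.5, 64.3, 80.8, 116.6 and 136.4 against 258.5, 244.2, 321.2 and 230.7. The genotypes were far apart, at 98.1 ± 28.7 (SD, n = 5) and 263.7 ± 40.0 (SD, n = 4) (−1.45, standard error 0.21, adjusted p = 0.000265). The log2 fold change of Egfl7 was −0.99 with the date as a term (adjusted p = 0.0762).

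Lyve1, a hyaluronan receptor of lymphatic vessels, fetal sinusoids and some tissue macrophages, had 341.3, 188.3, 194.3, 220.6 and 221.5 normalized counts in Mrc1Cre Xpr1fl/fl samples and 533.2, 517.8, 1035.5 and 543.6 in controls. Sample 1 was high among the Mrc1Cre Xpr1fl/fl samples and control 3 among the controls, and the genotypes did not overlap. Lyve1 fell by 1.46 on the log2 scale (standard error 0.22, adjusted p = 0.000449), by 1.22 without control 3 (adjusted p = 0.000682) and by 1.57 with the date as a term (adjusted p = 0.0418). Plvap, which forms the diaphragms of fenestrae, had 120.3, 105.4, 148.1, 127.8 and 122.0 against 283.6, 189.6, 345.1 and 194.1. Its genotypes did not overlap either (−0.98, standard error 0.18, adjusted p = 0.00162). Oit3, a secreted protein of sinusoidal endothelium, had 73.1, 91.5, 116.9, 89.9 and 113.6 against 246.8, 215.4, 539.5 and 133.0, also without overlap (−1.37, standard error 0.32, adjusted p = 0.00559).

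Pecam1, the junction protein CD31 that leukocytes and platelets also carry, had 1386.7, 1517.2, 1407.0, 1699.7 and 1690.3 normalized counts in Mrc1Cre Xpr1fl/fl samples and 1832.5, 1623.2, 2325.9 and 2123.9 in controls. Control 2 lay within the range of the Mrc1Cre Xpr1fl/fl samples and the other controls above it. It fell by 0.35 on the log2 scale (standard error 0.11, adjusted p = 0.0190), with an adjusted p of 0.0613 without control 3 and of 0.053 without control 4. Cd34, a sialomucin of capillaries and progenitors, had 663.6, 655.7, 477.3, 525.9 and 474.5 against 722.9, 756.6, 854.4 and 487.9. Controls 1 to 3 were above every Mrc1Cre Xpr1fl/fl sample and control 4 was not, and the difference did not pass (−0.32, adjusted p = 0.134), although it did without control 4 (−0.49, adjusted p = 0.0141).

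The remaining members of this group were low. Clec14a, an endothelial lectin, had 18.3 to 56.7 normalized counts against 33.2 to 244.3 and the largest negative log2 fold change of all members (−1.74, standard error 0.49, adjusted p = 0.0137). Its matrix ligand Mmrn2 was at 11.4 to 26.4 against 26.2 to 120.5 (−1.70, adjusted p = 0.00578). Nos3, the endothelial nitric oxide synthase, was at 8.3 to 20.5 against 21.1 to 81.3 (−1.43, adjusted p = 0.0132), and Emcn, a sialomucin of venous and capillary endothelium, at 7.2 to 15.4 against 11.0 to 44.2 (−1.27, adjusted p = 0.0246). Cldn5, the tight junction claudin of endothelium, had 5.1 to 33.1 against 13.0 to 107.9 and did not pass (−1.503, standard error 0.60, adjusted p = 0.0637), although it did without control 4 (adjusted p = 0.0169) or without Mrc1Cre Xpr1fl/fl sample 5 (adjusted p = 0.026). Emcn passed in 5 of the 9 fits that left out a sample, and its adjusted p was 0.0884 without control 3.

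**Figure D2:**
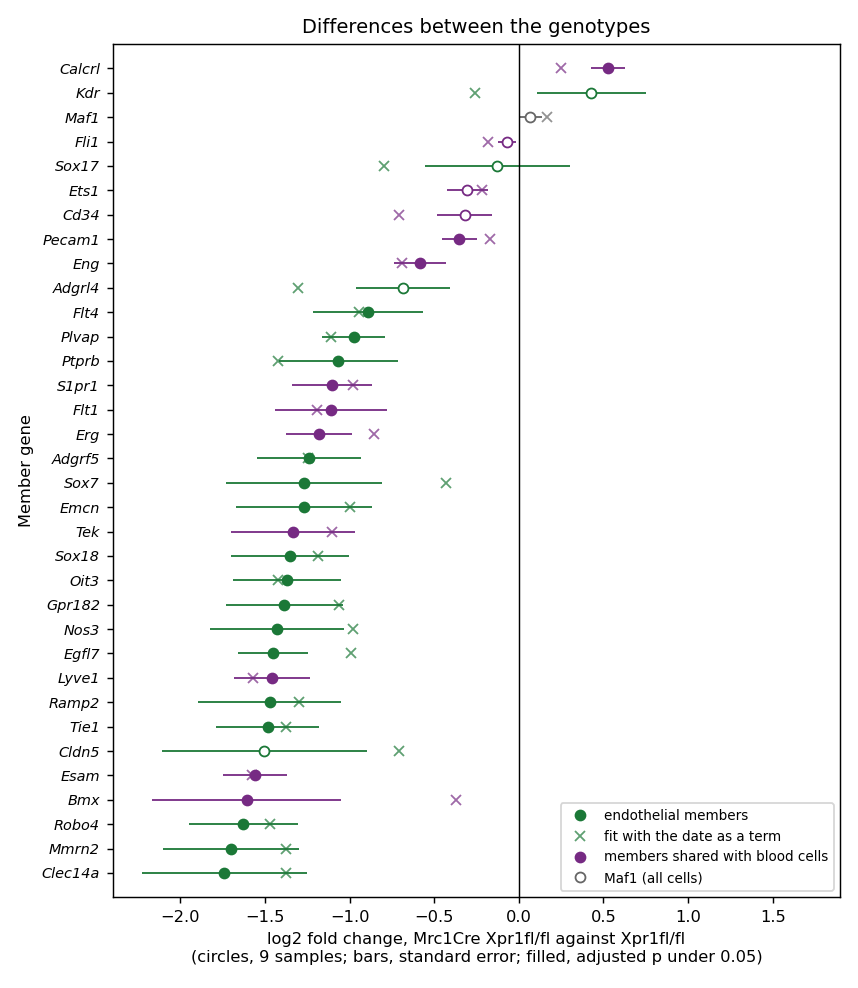
Log2 fold change of each of the 34 genes in Mrc1Cre Xpr1fl/fl against Xpr1fl/fl macrophages, from limma on log2(normalized count + 1). Circles are the fit of all 9 samples with standard errors as bars, filled where the adjusted p was under 0.05 (25 lower, 1 higher), and crosses are the fit with the date as a term. The falls reach −1.74 (Clec14a), and the circles of Calcrl, Kdr and Maf1 lie to the right of 0, with the cross of Kdr to its left.

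Levels were then compared per kb of the gene's canonical transcript, as the mean normalized counts per kb in the 4 controls. The 20 endothelial genes spanned 4.29 (Sox17) to 180.7 (Egfl7), with a median of 29.9. Against all genes of the table, these levels per kb lay between the 3.85 and the 48.3 percentile. Endothelial genes just inside the upper end were Egfl7 at 180.7 and Plvap at 120.7 normalized counts per kb. Of the 34 members, 6 lay above that range, and since the range is that of the endothelial genes, these come from the other classes by construction. They were Maf1 at 946.3 normalized counts per kb, Pecam1 at 537.4, Fli1 at 526.2, Cd34 at 285.8, Eng at 205.3 and Ets1 at 203.5, the last pair being just outside. Among these 6, Pecam1 and Eng passed the test, with log2 fold changes of −0.35 and −0.59, both smaller falls than the median of the members. The genes shared with blood cells that lay inside the range included Lyve1 at 159.0 normalized counts per kb, Calcrl at 104.1, Erg at 98.2 and Esam at 47.9, so that level alone did not separate them from the endothelial genes.

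The spread among the controls gave another view of the same genes, one that does not use the genotype. Control 3 was singled out with the values of these genes known. That it is high among them is thus in part built in, and it was not tested. The ratio of control 3 to the mean of the other 3 controls had a median of 2.44 over the 20 endothelial genes (1.09 for Adgrl4 to 3.34 for Cldn5), and a median of 1.00 over all genes tested. It was above 1.5 in 18 of the 20 endothelial genes and in 4 of the 13 genes shared with blood cells, beside 5.41% of all genes and 11.2% of the genes whose control mean lay in the same range. Control 3 was the highest control in 29 of the 34 members, beside 24.4% of all genes, and control 4 the lowest in 27, beside 22.1%. The ratios of all genes come from the same 4 libraries and are not independent of each other.

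The ratio ordered the members differently from the level. Kdr, which did not fall, had a ratio of 2.09, Oit3 2.71 and Gpr182 3.07, in the range of the other endothelial genes. Lyve1 had 1.95. Calcrl had 1.05, Fli1 0.993, Maf1 1.05, Esam 1.22, Pecam1 1.25, Cd34 1.30, Eng 1.35 and Erg 1.48. Bmx (2.68), Tek (2.56) and Flt1 (2.42), which are also listed as shared with blood cells, were near or above the median of the endothelial genes. Egfl7 (1.31) and Plvap (1.55), listed as endothelial, were below it, so the classes overlapped in the ratio. Esam, Erg and Egfl7 thus fell strongly between the genotypes while control 3 was at most 1.48 times the other controls. Of these 3, Esam and Erg are listed as shared with blood cells.

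**Figure D3:**
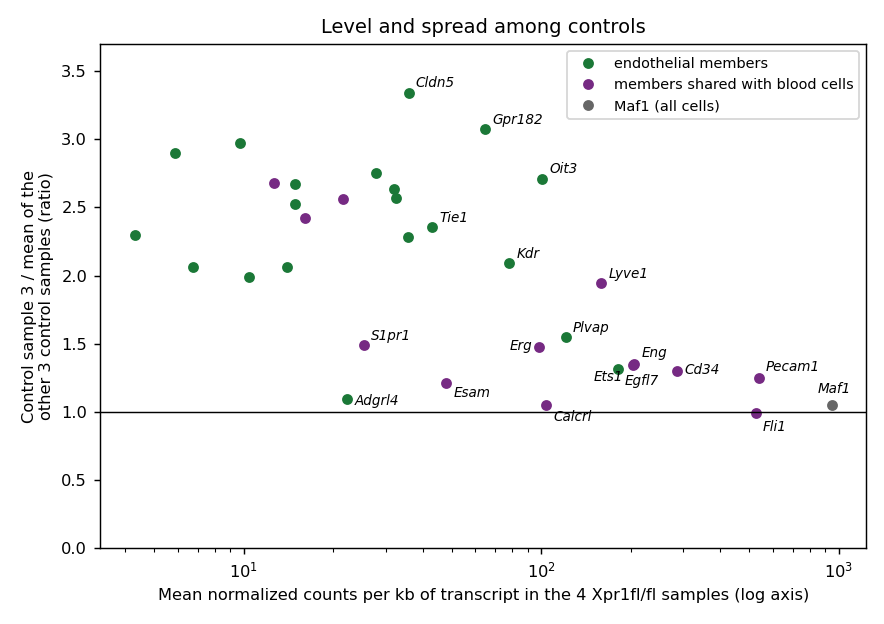
Mean normalized counts per kb of transcript in the 4 Xpr1fl/fl samples (horizontal log axis) against the ratio of control 3 to the mean of the other 3 controls (vertical axis) for each of the 34 genes. Green points are endothelial genes, purple points genes shared with blood cells and the gray point Maf1, and the horizontal line marks a ratio of 1. Most endothelial genes lie above 2 at or below 100.6 normalized counts per kb, and the most abundant members, Maf1, Pecam1 and Fli1, lie near 1.

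Summed over the 20 endothelial genes, Mrc1Cre Xpr1fl/fl samples 1 to 5 had 1265.7, 1377.7, 1497.7, 1423.8 and 1521.3 normalized counts, and controls 1 to 4 had 2543.9, 2283.1, 4646.2 and 1432.7. Control 4 was within the range of the Mrc1Cre Xpr1fl/fl samples. The 13 genes shared with blood cells summed to 6149.6 to 6473.7 normalized counts against 7278.7 to 9738.4.

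Markers of other cells that a sorted FL macrophage sample can hold or take up were often lower in Mrc1Cre Xpr1fl/fl samples too. The counts of these markers stand beside 21.6% of all genes lower and 21.5% higher. All 12 erythroid markers were lower in Mrc1Cre Xpr1fl/fl samples (summed normalized counts 91509.4 to 304943.0 against 400035.5 to 641917.7), as were all 10 hepatocyte markers (35350.2 to 45590.1 against 59546.3 to 102763.0). Trf was the most abundant of the hepatocyte markers, with means of 21976.9 and 35179.7, and fell least (−0.67). Its highest control was control 3. Of the 10 megakaryocyte markers 5 were lower and none higher (771.3 to 1190.9 against 2388.3 to 2910.2). Without Pf4, the most abundant of them, left out after its values were seen, the sums overlapped (261.7 to 749.6 against 687.1 to 1049.5). Of the 10 progenitor markers 7 were lower and 1 higher (5879.4 to 6523.8 against 10780.7 to 16694.9), with control 3 the highest. The higher one was Cd48, with means of 3220.5 and 2375.0 normalized counts. It makes up a large part of the progenitor sums in Mrc1Cre Xpr1fl/fl samples, so these sums understate the fall of the 7 lower genes. Of the 10 mesenchymal markers 9 were lower and none higher (682.1 to 1190.1 against 2237.7 to 6150.0), with control 1 the highest. The order of the controls was not shared by these lists. Control 4 was the lowest control for the endothelial genes (1432.7). It was the highest for the hepatocyte markers (102763.0) and, with Pf4 included, for the megakaryocyte markers (2910.2). Control 3 was the highest for the erythroid markers (641917.7). The 12 macrophage markers, of which 3 were lower (Lyz2, C1qa and C1qc) and 2 higher (Ptprc and Spi1), summed to 291600.1 to 313834.9 against 296264.9 to 357727.7. In the fit with the date, the median log2 fold change of the erythroid markers went from −1.82 to −0.94 (3 of 12 lower), of the hepatocyte markers from −1.10 to −0.57 (2 of 10), of the megakaryocyte markers from −1.26 to −0.11 (1 of 10), of the mesenchymal markers from −1.56 to −1.11 (3 of 10) and of the progenitor markers from −1.57 to −1.75 (6 of 10 lower, 1 higher). Of the macrophage markers 2 were then lower and 1 higher. These counts stand beside 4.54% of all genes lower and 4.24% higher in that fit. No marker was at 0 in all samples, and the part of these other cells in the falls of the members was not tested. Whether macrophages make some of these markers themselves was not tested either.

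**Figure D4:**
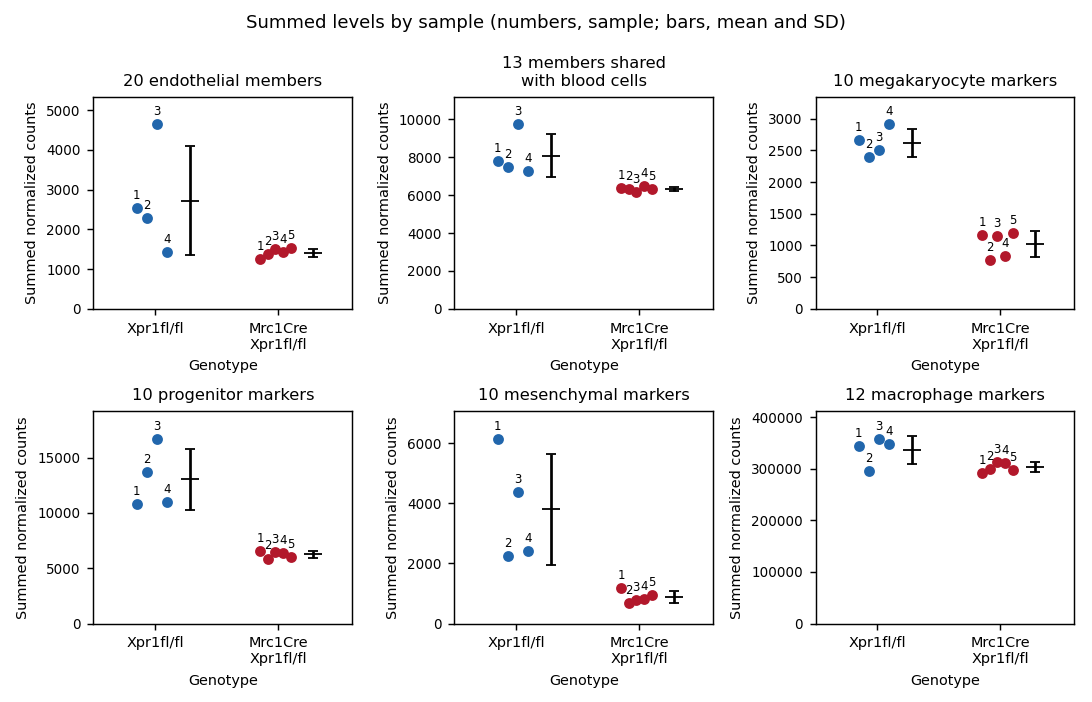
Summed normalized counts per sample (vertical axes, from 0) of the endothelial genes, the genes shared with blood cells and the megakaryocyte, progenitor, mesenchymal and macrophage markers, in Xpr1fl/fl (blue, n = 4) and Mrc1Cre Xpr1fl/fl (red, n = 5) samples. Numbers are sample numbers and bars the mean and SD. Control 3 is highest for both sets of members and for the progenitor and macrophage markers, but not for the megakaryocyte or mesenchymal markers.

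In the fit with the date, 32 of the 34 members had a negative log2 fold change, beside 48.5% of all genes, and their median was −0.99. Only 3 passed the test, Esam, Lyve1 and Eng, all lower, and 0 of the 20 endothelial genes did. Of all genes, 4.54% were lower and 4.24% higher in this fit, so that 0 of 20 is not far from that share. Within the earliest date, Mrc1Cre Xpr1fl/fl sample 5 was below all of controls 1 to 3 in 27 of the 34 members and in 17 of the 20 endothelial genes, beside 33.2% of all genes. Among the Mrc1Cre Xpr1fl/fl samples, sample 5 was the highest in 16 of the 34 members, beside 26.5%. The fit compares in effect 1 sample with 3.

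Of 52 other endothelial and sinusoid genes, 46 had a row, and 25 were lower, 9 higher and 12 not called, with a median log2 fold change of −0.85. Over all genes tested 21.6% were lower and 21.5% higher, so the share that rose was near that of all genes. The highest of them in the controls was Cdh5, VE-cadherin, the adhesion molecule of endothelial junctions. The authors also name it among the identity genes of FL macrophages and Kupffer cells. Its mean was 10682.7 normalized counts in Mrc1Cre Xpr1fl/fl samples and 18279.3 in controls (−0.77, adjusted p = 0.00055). Maf, a transcription factor of sinusoidal endothelium and macrophages, had 17471.3 against 15797.0 (0.15, adjusted p = 0.0341). Stab1, a scavenger receptor that both cell types carry, had 5484.1 against 11305.5 (−1.02, adjusted p = 0.000366). Per kb of transcript, the controls had 4546.0 normalized counts for Cdh5, 3982.1 for Maf and 1413.4 for Stab1. These levels are above that of the highest endothelial member, Egfl7 (180.7). The steepest falls were those of Tspan7, a tetraspanin (−2.11), Aqp1, a water channel of endothelium and erythroid cells (−2.02), and Nr2f2, a factor of venous identity (−1.78). The steepest rises were those of Icam2, an adhesion molecule of endothelium and leukocytes (1.12, adjusted p = 0.000117), Unc5b, a netrin receptor (1.04), and Angpt2, a Tie2 ligand (0.88).

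The ligands and partners of the member receptors numbered 30, of which 22 had a row and 21 were tested. Of these, 11 were lower, 1 higher and 9 not called, with a median log2 fold change of −0.37. Over all genes tested, 21.6% were lower and 21.5% higher. Adm, adrenomedullin, the ligand of the Calcrl and Ramp2 receptor, had the steepest fall, from a mean of 227.5 to 45.1 normalized counts (−2.31, adjusted p = 2.69e-05). Sphk1, a kinase that makes sphingosine 1-phosphate, fell by 1.83 on the log2 scale and Ramp1, another partner of Calcrl, by 1.77. Nrp1, a coreceptor for VEGF, was the gene that rose (0.42, adjusted p = 0.00685). The genes with the highest means were Sgpl1, the sphingosine 1-phosphate lyase, Tgfb1 and Nrp1, of which the first pair did not pass.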

How the data were processed

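Libraries were made from 45 ng of RNA per sample with a stranded Illumina kit and sequenced in pairs. The authors quantified transcripts with salmon on GRCm39, imported them with tximport and normalized gene counts with DESeq2, and the deposited table gives 1 signal for each gene, its normalized count. Versions and the filter behind the lowest row mean of 5.79 are not given in the sources used here, nor is the use of strand. Whole reads could not be recovered, so no count test was run. Totals of 26942921 to 28309443 per sample reflect the normalization, and absolute depth is unknown, so no counting interval is given. Symbols and positions came from GENCODE M39 for 13698 of 13708 rows. Of the members, Eng, Gpr182, Maf1, Plvap, Egfl7, Oit3 and Nos3 overlap a gene on the other strand and Ramp2 one on its own strand, which makes their values less certain.

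The 5 Mrc1Cre Xpr1fl/fl and 4 Xpr1fl/fl samples were compared with limma 3.58.1 in R 4.3.3 (lmFit, eBayes with trend) on log2(value + 1), which understates changes of low genes. Genes needed at least 10 in at least 4 samples, and p-values were adjusted by Benjamini-Hochberg over all 13594 tested. The steps were tested on simulated data. All members with a row were named, and of the other lists the 3 highest genes and up to 3 steepest falls and rises. Members and lists were chosen with earlier results of these data known. Alternatives were other pseudocounts, filters, scalings and prior settings, the replicate number as a block, the date as a term and leaving out each sample. The columns all matched a sample. Correlations between samples over all genes were 0.947 to 0.986, and none was treated as a repeat. Figures used matplotlib 3.10.9.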

Additional observations from a re-analysis of the deposited data

Results flagged for a closer look

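Among 68 groups of values (each member in each genotype), 7 held a sample whose gap to its neighbor exceeded Dixon's 95% critical value, where chance gives about 1 in 20, or 3.4. The groups come from the same libraries and are not independent, so 7 and 3.4 cannot be compared as a test. Control 3 was high for Lyve1 (1035.5 normalized counts, others 517.8 to 543.6), Gpr182 (522.2, others 130.3 to 196.6), Adgrf5 (232.8, others 75.8 to 101.7) and Nos3 (81.3, others 21.1 to 30.7). Mrc1Cre Xpr1fl/fl sample 5 was high for Bmx (30.5, others 5.1 to 10.6). Mrc1Cre Xpr1fl/fl sample 1 was high for Lyve1 (341.3, others 188.3 to 221.5) and low for Esam (23.8, others 30.9 to 32.6).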

How the results depend on the processing

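Over the members, 635 alternative values were computed under 19 other settings, of which 552 kept direction and side of the threshold, 65 lost the call, 12 gained it and 6 changed sign. The sign changed for Maf1 with scaling to the 75th percentile (−0.0133) and quantile normalization (−0.0132), for Sox17 with quantile normalization (0.21) and without control 2 (0.0057) or control 3 (0.20, with a range of −0.42 to 0.20 over the samples left out in turn), and for Kdr with the date as a term (−0.26). With the date as a term, calls over all genes went from 2939 to 617 lower and from 2926 to 577 higher, members from 25 to 3 lower and from 1 to 0 higher, other endothelial genes to 10 lower and 2 higher, and ligands and partners to 3 lower and 0 higher. With a filter at 50, 16 members were lower, since fewer genes were tested. The replicate block, in which Mrc1Cre Xpr1fl/fl sample 5 drops out and whose numbers did not pair the samples (correlations of deviations −0.0333, 0.147, −0.0113 and −0.0313), gave 25 members lower and 1 higher, and 4 ligands and partners higher in place of 1, and quantile normalization gave 2. With that block, Flt1 lost its call (adjusted p = 0.0553) and Cldn5 gained one (adjusted p = 0.0317). Leaving out single samples gave 2324 to 3031 genes lower and 2491 to 3050 higher, 18 to 28 members lower and 1 higher, 20 to 29 other endothelial genes lower and 6 to 9 higher, and 9 to 11 ligands and partners lower and 1 to 3 higher (3 without Mrc1Cre Xpr1fl/fl sample 5). With quantile normalization, Flt1, Flt4, Ptprb, Bmx, Ramp2, Emcn and Sox7 lost their calls. Of the members, 19 passed in every fit that left out a sample, and 19 without control 3. Scaling to the 75th percentile moved the share of calls that were lower from 50.1% to 65.4% and the median of all genes by −0.08. The causes were not tested. Depth is unknown, and genes near 10 normalized counts are the least precise.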
